A study of Mus musculus with 8 samples.

Results

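The fibril collagens of cartilage, types II, IX and XI, are encoded by 6 genes in the mouse, *Col2a1*, *Col9a1*, *Col9a2*, *Col9a3*, *Col11a1* and *Col11a2*. They were chosen by gene symbol, whatever their level, and all 6 are listed once among the 52325 gene identifiers of every library and passed the filter on low values. RNA was sequenced from costal (rib) chondrocytes of 7-d-old mice whose strain is labelled C57BL/6J, 4 wild-type and 4 *Mir140*-null, and the cells had been freed from rib cartilage with collagenase. The *Mir140*-null mice carry a germline deletion of the microRNA-140 locus made with CRISPR-Cas9, so every cell of the animal lacks it. The founders had a mixed C57BL/6 and CBA/ca background and were bred back to C57BL/6J, and wild-type and null lines were then derived from crosses of heterozygotes, so that line and genotype cannot be told apart. Values are transcripts per 1000000 (TPM), which correct for transcript length and library total, so levels may be compared between genes within a library. The TPM hold no read counts, and the depth behind each value is unknown. The labels number 4 libraries per genotype without saying that each came from a separate animal, so p-values measure the spread between these libraries.

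A collagen is a triple helix of chains built from repeats of glycine and any pair of residues, and each chain has its own gene. Type II collagen, made of 3 copies of the *Col2a1* product, forms the bulk of the cartilage fibril. Type XI collagen, assembled in cartilage from the products of *Col11a1*, *Col11a2* and an over-modified *Col2a1* chain, lies at the core of thin fibrils and limits their width. Type IX collagen, assembled from the products of *Col9a1*, *Col9a2* and *Col9a3*, sits on the fibril surface and links it to the surrounding matrix. MicroRNA-140 is made at a high level in cartilage, where SOX9, with SOX5 and SOX6, drives both its host gene *Wwp2* and the fibril collagen genes.

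The 6 genes lie on 6 chromosomes of GRCm38 (mm10): *Col2a1* at chr15:97975602-98004695 on the minus strand, and, on the plus strand, *Col9a1* at chr1:24177610-24252684, *Col9a2* at chr4:121039385-121055322, *Col9a3* at chr2:180597790-180622189, *Col11a1* at chr3:114030540-114220718 and *Col11a2* at chr17:34039437-34066685. Their longest coding transcripts in GENCODE M21 hold 289 coding exons, of which 217 (75.1%) have a length that is a multiple of 9 bases, the length of 1 glycine repeat, and 128 (44.3%) are exactly 54 bases long. Over the 197292 coding exons of 21445 genes these shares are 14.5% and 0.678%. The longest unbroken run of repeats of 3 codons that open with a glycine codon has 339 repeats in *Col2a1* and 338 in both *Col11a1* and *Col11a2*, but 113 in each collagen IX gene, where 5 runs of 10 or more repeats follow each other with gaps. A run of 10 or more repeats is found in 0.499% of 13037 tested genes. The repeat is shown by the first 27 bases of a coding exon of 54 bases in the longest run of each gene, 5′ to 3′ along the gene. Capitals mark the glycine codon (GG and any base) that opens each repeat. A glycine codon inside a repeat, as in the *Col11a1* window, is left in lower case.
*Col2a1*, coding exon 10, chr15:97996516-97996542, minus strand: GGCcctcaaGGAtttcaaGGCaatcct
*Col9a1*, coding exon 18, chr1:24210373-24210399, plus strand: GGCcataaaGGGgcgaaaGGAgaaatc
*Col9a2*, coding exon 12, chr4:121045141-121045167, plus strand: GGTcatccaGGCaaacggGGGattctg
*Col9a3*, coding exon 12, chr2:180605727-180605753, plus strand: GGGcctactGGCtacaaaGGGgaacaa
*Col11a1*, coding exon 15, chr3:114108281-114108307, plus strand: GGGggtcctGGTtcagctGGAgccaaa
*Col11a2*, coding exon 15, chr17:34051480-34051506, plus strand: GGTcagcctGGGagccctGGCttgaag
The windows were chosen in phase with the run, so by that choice a glycine codon returns every 9 bases in each. Only *Col9a3* overlaps another annotated gene, *Tcfl5* on the opposite strand, which reached at most 3.93 TPM. GENCODE M21 lists 3 to 12 transcripts per member, and the values deposited per gene do not tell isoforms apart.

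Since the deleted locus encodes a microRNA, the longest annotated 3′UTR of each member was searched for the words that pair with its seeds. The mature strand listed in RefSeq for GRCm38.p6 is shown with its seed, bases 2 to 8, in capitals.
mmu-miR-140-3p, chr8:107551288-107551308, plus strand: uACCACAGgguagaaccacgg
This seed pairs with CTGTGGT. The isoform miR-140-3p.1 begins 1 base later and pairs with CCTGTGG, and miR-140-5p, from the other arm of the hairpin, pairs with AACCACT. The member 3′UTRs are 438 to 1891 bases long, against a median of 1145 bases over the 12963 tested genes with a 3′UTR. Of the 18 searches, 1 gave a match: *Col11a2* holds the word of miR-140-3p.1 once, on the sense strand, 463 bases after the stop codon. It is shown with 10 bases on either side and the word in capitals.
*Col11a2* 3′UTR, chr17:34066261-34066287, plus strand: ttccctagtgCCTGTGGgtgtggcttc
Among all those 3′UTRs, 20.1% hold CCTGTGG, 18.9% hold CTGTGGT and 10.9% hold AACCACT. A match is a description of the letters only.

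Several features of the libraries moved with genotype or with single libraries. *Mir140* itself was listed at 0 in 7 libraries, and at a level of 8.86 TPM in replicate 2 of those labelled *Mir140*-null, so its TPM do not check the labels. Of the 10 chondrocyte markers all were tested, and their summed level was 7391 to 8352 TPM in wild-type libraries against 7507 to 9126 TPM in the *Mir140*-null ones. The 8 fibroblast and perichondrium markers summed to 3093 to 5916 TPM in wild-type libraries and to 588, 742, 5281 and 3845 TPM in replicates 1 to 4 labelled *Mir140*-null. *Pdgfra* and *Twist2* of this list and *Acan* and *Ucma* of the chondrocyte list rose, and *Hapln1* fell. In replicates 1 and 2 labelled *Mir140*-null, *Pdgfra* had 34.5 and 36.5 TPM, against 11.8 to 19.8 TPM in wild-type libraries. *Twist2* had 1.22 and 1.44 TPM there, against 0.606 to 0.974 TPM. The other genes of the fibroblast and perichondrium list lay below every wild-type library in these replicates, so the low sum does not hold for each marker. The erythroid markers stood at 646 to 1854 TPM in wild-type libraries against 256 to 1725 TPM in the *Mir140*-null ones. Summed markers of hypertrophic chondrocytes reached at most 326 TPM, of skeletal muscle 76.2, of leukocytes 40.9, of endothelium 28.8 and of osteoblasts 18.1, and limma called no gene of these lists or of the erythroid list, with *Mmp13* higher and *Phex* and *Tnnt3* lower at an unadjusted p under 0.05. Genes within a list differed in level. The muscle marker *Myog* and the leukocyte marker *Ptprc* stayed under 1 TPM in all 8 libraries. In the same lists *Tnnt3* had 28.4 to 73.1 TPM and *Cd68* had 16.0 to 37.0 TPM. Mitochondrially encoded genes took 4.06% to 6.99% of the wild-type TPM and 8.41% to 10.1% of the *Mir140*-null TPM, without overlap. The part of these features in the results below was not tested. In bulk RNA, fewer cells of a type and less RNA per cell cannot be told apart.

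The fibril collagens were among the most abundant transcripts of the tissue. *Col2a1* ranked first of all genes in each of the 8 libraries, and the other 5 members ranked between 15 and 77. Together the 6 genes took 6.45% to 8.08% of all TPM in wild-type libraries and 4.77% to 6.76% in *Mir140*-null libraries, with means of 7.61% ± 0.779 and 5.70% ± 1.04 (SD, n = 4 each). The ranges overlap, because *Mir140*-null replicate 2 exceeded wild-type replicate 3. As a share of the TPM of nuclear protein-coding genes, the 6 took 10.5% to 12.9% and 7.72% to 10.6%.

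*Col2a1* stood far above the other members, at 16.1 to 19.1 times the level of *Col9a1* in wild-type libraries. *Col11a2* came second in all 8 libraries. The remaining 4 genes lay within a narrow band in wild-type libraries, with means from 3110 to 3297 TPM, and their order was not fixed: *Col9a1* exceeded *Col9a2* in 1 of 4 wild-type libraries and *Col9a3* in 2 of 4. In *Mir140*-null libraries *Col9a2* stood above *Col9a1*, *Col9a3* and *Col11a1* in 4 of 4.

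*Col9a1*, *Col9a3* and *Col11a1* were lower in *Mir140*-null chondrocytes, by 25.3% to 28.3% of the wild-type mean, and their genotypes did not overlap. *Col2a1* was lower by a like amount, 28.3%, but its genotypes overlapped and it missed the threshold. *Col9a2* and *Col11a2*, which encode partner chains of the same collagen IX and XI molecules, stood at 1.03 and 0.953 times the wild-type mean with no call. Of the 17177 genes tested with limma, 6.4% were called lower and 10.5% higher at a Benjamini-Hochberg adjusted p under 0.05, and 3 of the 6 members were called lower. Groups of 4 that did not overlap, with the *Mir140*-null libraries lower, were found for 10.2% of all tested genes and for the same 3 members. The median log2 fold change was -0.46 over the 6 members and -0.01 over all genes. The 1797 higher and 1100 lower calls became 1368 and 1320 after median-ratio scaling.

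**Figure D1:**
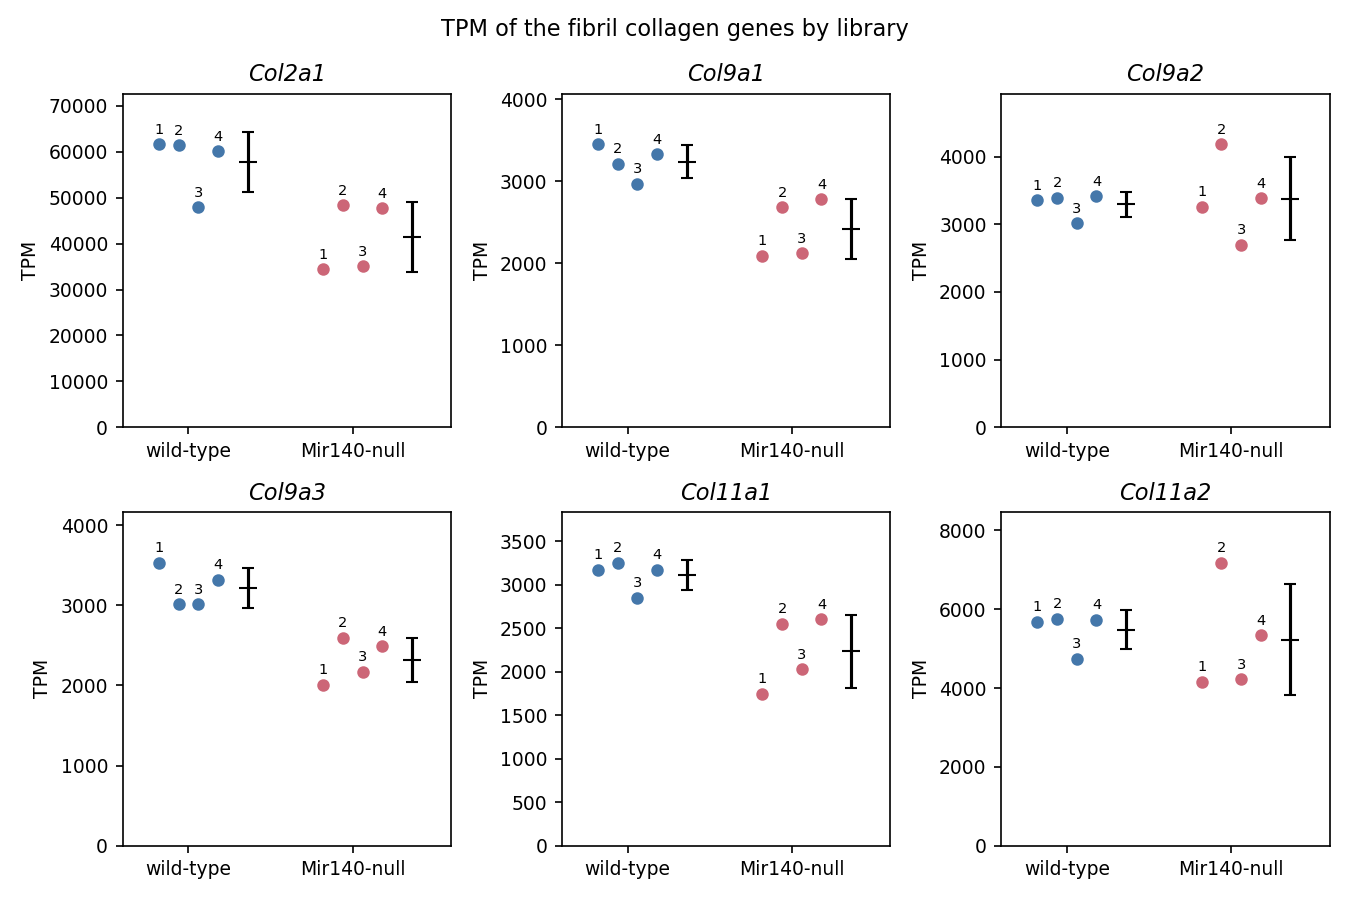
TPM (vertical axes, from 0, 1 scale per gene) of the 6 fibril collagen genes in each library. Points are libraries with their replicate number, and bars are the mean ± SD of 4 libraries; the *Mir140*-null points lie below every wild-type point for *Col9a1*, *Col9a3* and *Col11a1*.

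*Col2a1*, the gene of the main fibril chain, had 61630, 61442, 47893 and 60174 TPM in wild-type replicates 1 to 4 and 34418, 48361, 35122 and 47756 TPM in *Mir140*-null replicates 1 to 4. Wild-type replicate 3 stood below the other wild-type libraries, and 3 of 4 *Mir140*-null libraries lay below every wild-type one. The means were 57785 ± 6626 and 41414 ± 7681 TPM (SD, n = 4), and the log2 fold change was -0.49 (SE 0.16, 95% interval -0.86 to -0.12, limma adjusted p = 0.0695). With tests limited to genes at a mean of 5 TPM or more, the same difference passed the threshold (limma adjusted p = 0.0416, 9668 genes tested), the only alternative setting of 9 that called it. With no filter the limma adjusted p was 0.318 and with the replicate number as a block 0.109. Without wild-type replicate 3 the genotypes did not overlap, and the log2 fold change was -0.58 (limma adjusted p = 0.0738). *Col2a1* exceeded the second gene of its library 1.99- to 2.65-fold in wild-type and 1.08- to 1.66-fold in *Mir140*-null libraries. That second gene was annotated as a microRNA gene in 3 wild-type libraries and as a pseudogene in 1, and it was the mitochondrial tRNA gene *mt-Ts1* in all 4 *Mir140*-null libraries. It had 22696 to 24719 TPM in wild-type and 28740 to 32357 TPM in *Mir140*-null libraries, so these folds moved with both genes. Whether TPM of microRNA and tRNA genes can be set against *Col2a1* in poly(A)-selected libraries was not tested.

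Among the collagen IX genes, *Col9a1*, whose product carries the large globular domain that projects from the fibril, had 3448, 3212, 2968 and 3330 TPM in wild-type libraries against 2090, 2685, 2123 and 2777 TPM in the *Mir140*-null ones. The highest *Mir140*-null library lay below the lowest wild-type library. The log2 fold change was -0.43 (SE 0.12, limma adjusted p = 0.0467), just under the threshold. *Col9a3*, which encodes the third chain, had 3531, 3012, 3013 and 3322 TPM in wild-type libraries against 2009, 2598, 2170 and 2488 TPM in the *Mir140*-null ones, again with no overlap. It had the smallest p of the 6 genes, with a log2 fold change of -0.48 (SE 0.11, limma adjusted p = 0.0266). *Col9a2*, the second chain, had 3360, 3392, 3016 and 3420 TPM in wild-type libraries against 3258, 4183, 2701 and 3386 TPM in the *Mir140*-null ones. Its *Mir140*-null libraries lay on both sides of the wild-type ones, with replicate 2 the highest of all 8. The log2 fold change was 0.02 (SE 0.14, 95% interval -0.29 to 0.33, limma adjusted p = 0.93), and its sign turned to -0.12 without the libraries labelled *Mir140*-null replicates 1 and 2 and to -0.00082 under median-ratio scaling.

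The collagen XI genes also parted. *Col11a1*, which encodes the chain that nucleates the fibril, had 3170, 3249, 2851 and 3171 TPM in wild-type libraries against 1746, 2552, 2028 and 2599 TPM in the *Mir140*-null ones. Every *Mir140*-null library lay below every wild-type library, with a log2 fold change of -0.50 (SE 0.14, limma adjusted p = 0.0469). *Col11a2*, the partner chain, had 5685, 5760, 4746 and 5739 TPM in wild-type libraries against 4159, 7177, 4225 and 5344 TPM in the *Mir140*-null ones. The library labelled *Mir140*-null replicate 2 was the highest of all 8 and replicates 1 and 3 were the lowest, so the *Mir140*-null spread covered the wild-type one. The log2 fold change was -0.10 (SE 0.18, 95% interval -0.52 to 0.32, limma adjusted p = 0.73).

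**Figure D2:**
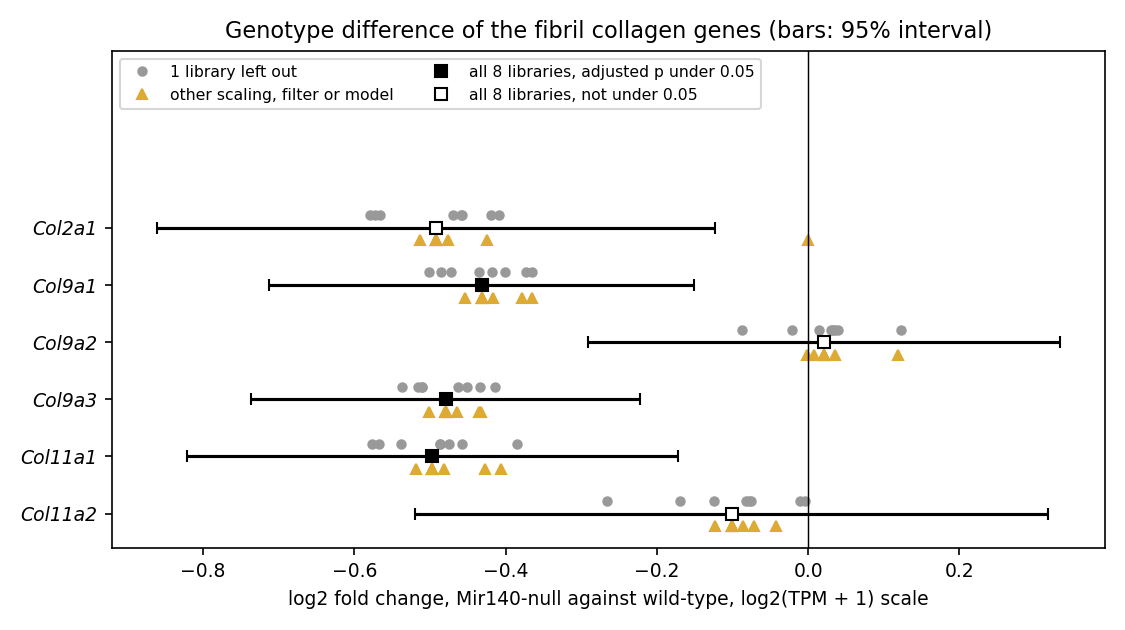
Log2 fold change of each member (squares, 95% interval, filled where the limma adjusted p was under 0.05), with the values when 1 library is left out (circles) and under the other scalings, filters and models (triangles). *Col2a1*, *Col9a1*, *Col9a3* and *Col11a1* sit between -0.37 and -0.58 apart from the triangle of *Col2a1* at 0, where quantile normalization sets the first-ranked gene of every library to the same value.

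The 3 calls rest on narrow margins, while their size varied less. When each library was left out in turn, the log2 fold change stayed between -0.37 and -0.50 for *Col9a1*, between -0.41 and -0.54 for *Col9a3* and between -0.39 and -0.58 for *Col11a1*. The call of *Col9a1* and that of *Col11a1* remained only without *Mir140*-null replicate 4, and that of *Col9a3* only without wild-type replicate 2 or *Mir140*-null replicate 2 or 4, so each was lost when any other library was left out. The highest limma adjusted p in these fits were 0.111, 0.0744 and 0.107. The summed fibroblast and perichondrium markers were low in the libraries labelled *Mir140*-null replicates 1 and 2. Without these libraries the log2 fold changes of *Col2a1*, *Col9a1*, *Col9a3* and *Col11a1* were -0.49, -0.41, -0.47 and -0.44. None of the 4 was then called, with 357 genes higher and 210 lower over all genes.

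Ratios between members do not depend on how libraries are scaled to each other, and they set *Col9a2* and *Col11a2* apart from the other 4 genes. The levels of *Col9a2* and *Col11a2* relative to *Col2a1*, *Col9a1*, *Col9a3* and *Col11a1* were higher in *Mir140*-null chondrocytes in all 8 combinations, with no overlap between genotypes. The other 7 ratios, between *Col9a2* and *Col11a2* or among the other 4 genes, overlapped. Over the 31828231 pairs of protein-coding genes with a mean of 5 TPM or more, 29.4% of ratios did not overlap, against 8 of 15 here. Each of the 8 reached the smallest two-sided p that the 70 assignments of 4 against 4 libraries allow (exact permutation test, p = 0.0286), and adjusted over the 15 pairs this is 0.0536, so none passed 0.05 after adjustment. With 8 of 15 pairs at the smallest p, no size of difference could have passed. The miss therefore does not measure the strength of the difference. The 15 ratios share genes and libraries and are not independent of each other.

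Within collagen IX, the ratio of *Col9a2* to *Col9a1* was 0.974, 1.06, 1.02 and 1.03 in wild-type and 1.56, 1.56, 1.27 and 1.22 in *Mir140*-null libraries. Every *Mir140*-null library exceeded every wild-type one, with a mean log2 ratio of 0.03 ± 0.05 in wild-type and 0.48 ± 0.19 in *Mir140*-null libraries (SD, n = 4), a difference of 0.45. The ratio of *Col9a2* to *Col9a3* was 0.951 to 1.13 in wild-type and 1.24 to 1.62 in *Mir140*-null libraries, a difference of 0.50 on the log2 scale. The third ratio, *Col9a3* to *Col9a1*, stayed between 0.896 and 1.02 in all 8 libraries (difference -0.05, exact permutation p = 0.371, adjusted p = 0.464).

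Within collagen XI, the ratio of *Col11a2* to *Col11a1* was 1.79, 1.77, 1.66 and 1.81 in wild-type and 2.38, 2.81, 2.08 and 2.06 in *Mir140*-null libraries, a difference of 0.40 on the log2 scale. *Col2a1*, which serves as the third chain of collagen XI, had a ratio to *Col11a1* of 16.8 to 19.4 in wild-type and 17.3 to 19.7 in *Mir140*-null libraries (log2 difference 0.01, exact permutation p = 0.886). Its ratio to *Col11a2* was 10.1 to 10.8 in wild-type and 6.74 to 8.94 in *Mir140*-null libraries, with no overlap. The ratio of *Col9a2* to *Col11a2*, the pair set apart from the other 4 genes, was 0.589 to 0.635 in wild-type and 0.583 to 0.783 in *Mir140*-null libraries (log2 difference 0.12, exact permutation p = 0.343).

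The libraries labelled *Mir140*-null replicates 1 and 2 had the low sum of fibroblast and perichondrium markers. They held the largest *Col9a2* to *Col9a1*, *Col9a2* to *Col9a3* and *Col11a2* to *Col11a1* ratios. Without them these log2 differences were 0.29, 0.34 and 0.23, with the remaining *Mir140*-null libraries still above every wild-type library. Without replicates 3 and 4 they were 0.61, 0.66 and 0.56.

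**Figure D3:**
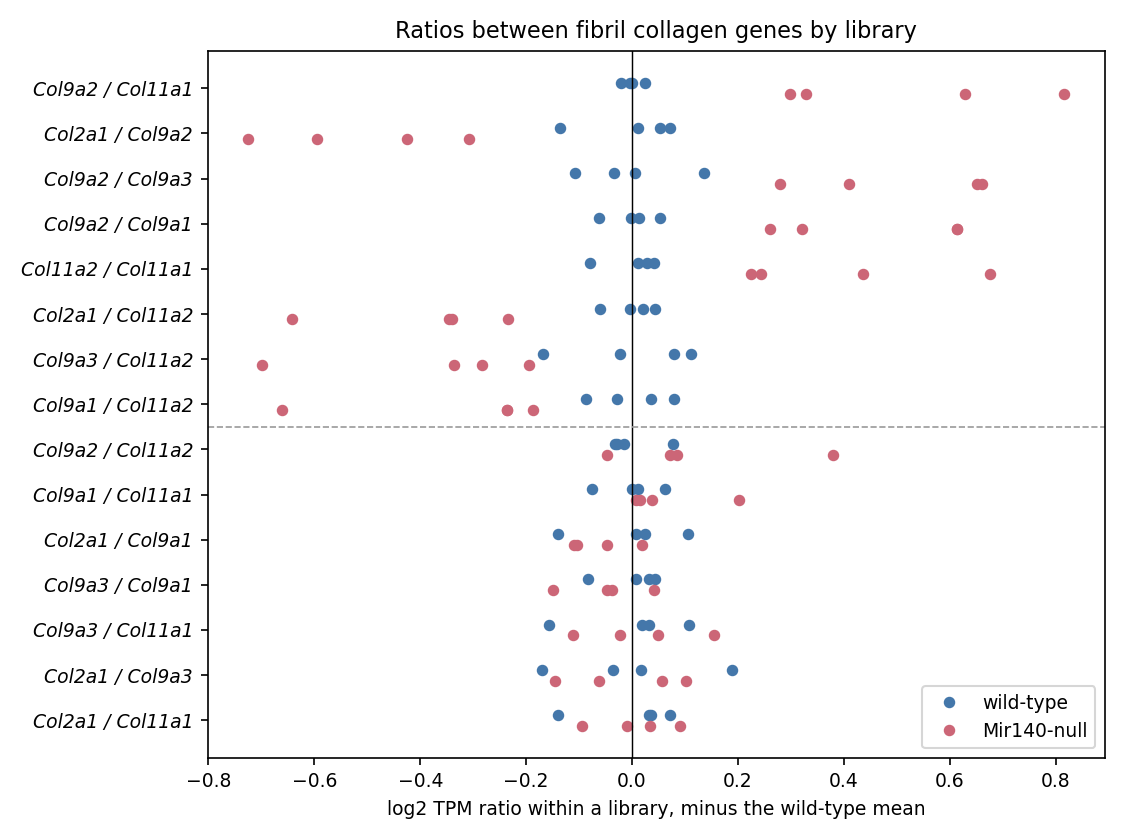
Log2 ratio of the TPM of 2 members within each library, minus the wild-type mean of that ratio (horizontal axis), for the 15 pairs ordered by the size of the genotype difference. In the 8 pairs above the dashed line, each of which sets *Col9a2* or *Col11a2* against 1 of the other 4 genes, the *Mir140*-null points (red) lie outside the wild-type points (blue); in the 7 below it they overlap.

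Across the 8 libraries, Pearson's r of log2(TPM + 1) was between 0.935 and 0.981 for the 6 pairs among *Col2a1*, *Col9a1*, *Col9a3* and *Col11a1*, 0.868 for *Col9a2* with *Col11a2*, and 0.238 to 0.706 between the sets. Within the 4 wild-type libraries the sets did not part in this way: r was 0.382 for *Col9a3* with *Col11a1* and 0.542 for *Col9a3* with *Col2a1*, but 0.993 for *Col2a1* with *Col11a2* and 0.979 for *Col2a1* with *Col9a2*. Within the 4 *Mir140*-null libraries r was 0.946 to 0.993 among the first 4 genes and 0.891 for *Col9a2* with *Col11a2*. Between the sets it was 0.57 to 0.917 there, with *Col9a3* and *Col11a2* the highest. These coefficients are descriptions over 8 or 4 points that share library totals, and those over 8 include the genotype difference by which the sets were told apart. The protein-coding genes most like the mean of the 6 members were *Slc38a3*, a glutamine transporter gene, at r = 0.974, followed by *Pak3*, *Peg3*, *Slc39a11*, *Foxo3*, *Kiz*, *Txndc11*, *Slc25a36*, *Pla2g5* and *Adgrg6*, the last at 0.910. *Slc38a3* had a mean of 19.1 ± 2.10 TPM in wild-type libraries against 11.4 ± 3.41 TPM in the *Mir140*-null ones. Of the 7992 genes compared, 15 had r above 0.9 and 39 had r below -0.9.

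The counts for the lists of collagen-related genes that follow stand beside 10.5% higher and 6.4% lower calls over all 17177 genes, and beside 19.0% higher and 14.9% lower at an unadjusted p under 0.05. With 1 library left out, calls over all genes ranged from 779 to 1553 higher and from 419 to 1214 lower, against 1797 and 1100 with every library. None of the 10 transcription factors and cofactors of the fibril collagen genes was called by limma. All were tested, with a median log2 fold change of -0.06, and 1 of them, *Ppargc1a*, was lower at an unadjusted p under 0.05. With 1 RUVr factor, a term for unwanted variation estimated from the residuals, 1 was called lower, beside 2016 of all 17177 genes. Such a factor leaves the log2 fold changes as they were and alters only the estimated spread. *Sox9*, the master regulator of chondrocytes, had 134, 175, 129 and 147 TPM in wild-type libraries against 204, 220, 122 and 165 TPM in the *Mir140*-null ones. Its *Mir140*-null libraries lay on both sides of the wild-type ones (log2 fold change 0.25, 95% interval -0.19 to 0.70, limma adjusted p = 0.389), and the value without replicates 1 and 2 was -0.03. Without replicates 3 and 4 it was 0.54 and passed the threshold (limma adjusted p = 0.046). *Sox5* and *Sox6*, which bind with SOX9 at collagen enhancers, had log2 fold changes of 0.16 (adjusted p = 0.531) and -0.07 (adjusted p = 0.86) in limma, and *Wwp2*, the host gene of *Mir140*, -0.16 (adjusted p = 0.487). For all 3 the genotypes overlapped.

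Of the 17 genes of the machinery that modifies and folds procollagen chains, all tested, 13 were not called, 2 rose (*Plod1* and *Plod3*) and 2 fell (*P4hb* and *Crtap*), and the median log2 fold change was -0.09. The all-gene shares are 10.5% higher and 6.4% lower. At an unadjusted limma p under 0.05, 2 of the 17 were higher and 5 lower, against 19.0% and 14.9% of all genes. The call of *P4hb* was lost without wild-type replicate 1, 2 or 4 or *Mir140*-null replicate 2. *Plod1*, a lysyl hydroxylase gene, had 31.1, 29.1, 31.6 and 35.9 TPM in wild-type libraries against 74.1, 89.6, 81.8 and 87.3 TPM in the *Mir140*-null ones. No *Mir140*-null library came near the wild-type range, and the log2 fold change of 1.36 (SE 0.11, limma adjusted p = 0.0021) held its call in all 8 fits that left out 1 library. *Crtap*, a part of the prolyl 3-hydroxylation complex, had 207 to 244 TPM in wild-type libraries against 114 to 170 TPM in the *Mir140*-null ones (log2 fold change -0.71, SE 0.14, limma adjusted p = 0.0158). *P4ha1*, which like *P4ha2* and *P4ha3* of this list encodes a catalytic subunit of prolyl 4-hydroxylase, overlapped between genotypes (log2 fold change -0.09, limma adjusted p = 0.568). So did *Serpinh1*, which encodes a collagen chaperone, at -0.30 (limma adjusted p = 0.176).

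Of the 16 genes for procollagen export, propeptide cleavage and crosslinking, 5 rose, none fell and 11 were not called by limma, with a median log2 fold change of 0.23, where 10.5% of all genes rose and 6.4% fell. At an unadjusted p under 0.05, 7 were higher and 1 was lower, against 19.0% and 14.9% of all genes. The number that rose was 2 without wild-type replicate 3 or *Mir140*-null replicate 2, 5 without *Mir140*-null replicate 3 and 3 without any other single library, and of the 5 *Pcolce2* and *Lox* were called in all 8 of these fits. Higher calls over all genes were 793 without wild-type replicate 3, 779 without *Mir140*-null replicate 2 and 1553 without *Mir140*-null replicate 3. With all 8 libraries there were 1797. The 5 were *Sec23a* and *Sec24d*, coat proteins of export vesicles, *Tll1* and *Pcolce2*, which act in propeptide cleavage, and the crosslinking enzyme *Lox*. *Lox* had 27.2, 28.2, 32.1 and 26.3 TPM in wild-type libraries against 55.0, 48.9, 48.2 and 43.6 TPM in the *Mir140*-null ones, with no overlap (log2 fold change 0.76, SE 0.11, limma adjusted p = 0.0076). Under median-ratio scaling 3 of the 16 rose and 1 fell.

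Of the 15 proteins that bind the fibrils or form the network around them, 2 genes rose, 4 fell and 9 were not called, with a median log2 fold change of -0.33, where 10.5% of all genes rose and 6.4% fell. The number that fell was 2 without wild-type replicate 1, 3 or 4 or *Mir140*-null replicate 2, and the number that rose was 1 without any single library other than *Mir140*-null replicate 1. Lower calls over all genes were 665, 440 and 419 without wild-type replicates 1, 3 and 4. They were 423 without *Mir140*-null replicate 2, against 1100 with all 8 libraries. Of the 15, 2 were higher and 5 lower with all 8 libraries at an unadjusted limma p under 0.05. Those shares over all genes were 19.0% and 14.9%. *Acan*, the core protein of the proteoglycan aggrecan, had 447, 681, 491 and 590 TPM in wild-type libraries against 1085, 996, 876 and 1083 TPM in the *Mir140*-null ones. The genotypes did not overlap, and the log2 fold change of 0.88 (SE 0.15, limma adjusted p = 0.0107) was opposite in sign to those of the 3 fibril collagen genes that were called. *Chad*, which encodes chondroadherin, a collagen-binding leucine-rich repeat protein, had 1197, 1804, 1022 and 1359 TPM in wild-type libraries against 500, 582, 550 and 659 TPM in the *Mir140*-null ones (log2 fold change -1.21, SE 0.18, limma adjusted p = 0.008). The others called were *Matn4*, which rose, and *Hapln1*, *Dcn* and *Epyc*, which fell. *Acan*, *Chad* and *Hapln1* were called in all 8 fits without 1 library, *Epyc* in 4, and *Matn4* and *Dcn* in 1 each.

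The collagen-cleaving proteinases and their inhibitors, 9 of 10 tested, held 2 genes that rose, *Mmp3* and *Timp1*, and none that fell in limma, with a median log2 fold change of 0.38, where 10.5% of all genes rose and 6.4% fell. At an unadjusted p under 0.05, 5 were higher and 0 lower, against 19.0% and 14.9% of all genes. Of the proteinase genes only *Mmp3* was called. *Mmp2*, *Mmp9*, *Mmp13*, *Mmp14* and *Ctsk* were not (limma adjusted p from 0.0967 to 0.865), and *Mmp8* was not tested. *Mmp3*, the proteinase stromelysin, had 48.0, 102, 76.2 and 111 TPM in wild-type libraries against 994, 619, 457 and 529 TPM in the *Mir140*-null ones, the largest difference of any gene in these lists (log2 fold change 2.94, SE 0.32, limma adjusted p = 0.004). Every *Mir140*-null library exceeded the highest wild-type library. *Timp1*, an inhibitor of these proteinases, had a log2 fold change of 1.20 (SE 0.24, limma adjusted p = 0.0171).

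Of the 7 collagen receptor genes, 3 rose and 1 fell, where 10.5% of all genes rose and 6.4% fell, and none was called without wild-type replicate 4. That fit had 879 higher and 419 lower calls over all genes, against 1797 and 1100 with every library. Of the 7, 4 were higher and 2 lower with every library at an unadjusted limma p under 0.05. Those shares over all genes were 19.0% and 14.9%. *Ddr2*, a receptor tyrosine kinase that binds fibrillar collagen, had 25.0, 46.0, 43.1 and 30.8 TPM in wild-type libraries against 59.8, 62.5, 59.9 and 74.4 TPM in the *Mir140*-null ones (log2 fold change 0.84, SE 0.20, limma adjusted p = 0.0271). *Itga10*, the integrin chain through which chondrocytes bind type II collagen, had 82.5 to 99.0 TPM in wild-type libraries against 61.9 to 71.3 TPM in the *Mir140*-null ones (log2 fold change -0.39, SE 0.10, limma adjusted p = 0.0351). The call of *Itga10* was lost under median-ratio scaling and in 7 of the 8 fits without 1 library, all but the one without wild-type replicate 1, and that of *Ddr2* in 4, those without wild-type replicate 4 or *Mir140*-null replicate 1, 2 or 4. The 2 other receptor genes that rose were *Itga2*, whose call was kept only without *Mir140*-null replicate 1 or 3, and *Itgb1*, whose call was lost without wild-type replicate 2, 3 or 4.

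The 8 other fibrillar collagen genes, among them those of collagens I, III and V, gave no call in limma, and none had an unadjusted p under 0.05 (0 higher and 0 lower). Their median log2 fold change was -0.83. With 1 RUVr factor, which left that median as it was and altered only the estimated spread, 4 of the 8 were called lower. These 4 calls are therefore not a separate measure of a genotype difference. That fit called 2460 of all 17177 genes higher and 2016 lower. Levels differed strongly between *Mir140*-null libraries: *Col1a1*, the main chain of bone and skin collagen, had 793 to 1544 TPM in wild-type libraries and 47.8, 50.1, 1326 and 898 TPM in replicates 1 to 4 labelled *Mir140*-null. The 2 low libraries are those with a low sum of fibroblast and perichondrium markers, a list that holds *Col1a1* itself. *Col27a1*, a fibrillar collagen gene of cartilage, had a log2 fold change of -0.11 (limma adjusted p = 0.583).

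Without the libraries labelled *Mir140*-null replicates 1 and 2, the counts that rose and fell were 1 and 0 for modification and folding, 1 and 0 for export, cleavage and crosslinking, 1 and 0 for fibril-bound and network partners, 3 and 0 for proteinases and inhibitors, and 0 and 0 for receptors, beside 2.08% higher and 1.22% lower over all genes. *Plod1*, *Lox* and *Mmp3* remained called, while *Acan*, *Chad* and *Crtap* lost the threshold (limma adjusted p = 0.0741, 0.0598 and 0.0639). Without replicates 3 and 4 the counts, in the same order, were 2 and 3, 6 and 2, 1 and 7, 3 and 1, and 1 and 2, and 6 of the 8 other fibrillar collagens fell, beside 11.0% higher and 12.9% lower over all genes.

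**Figure D4:**
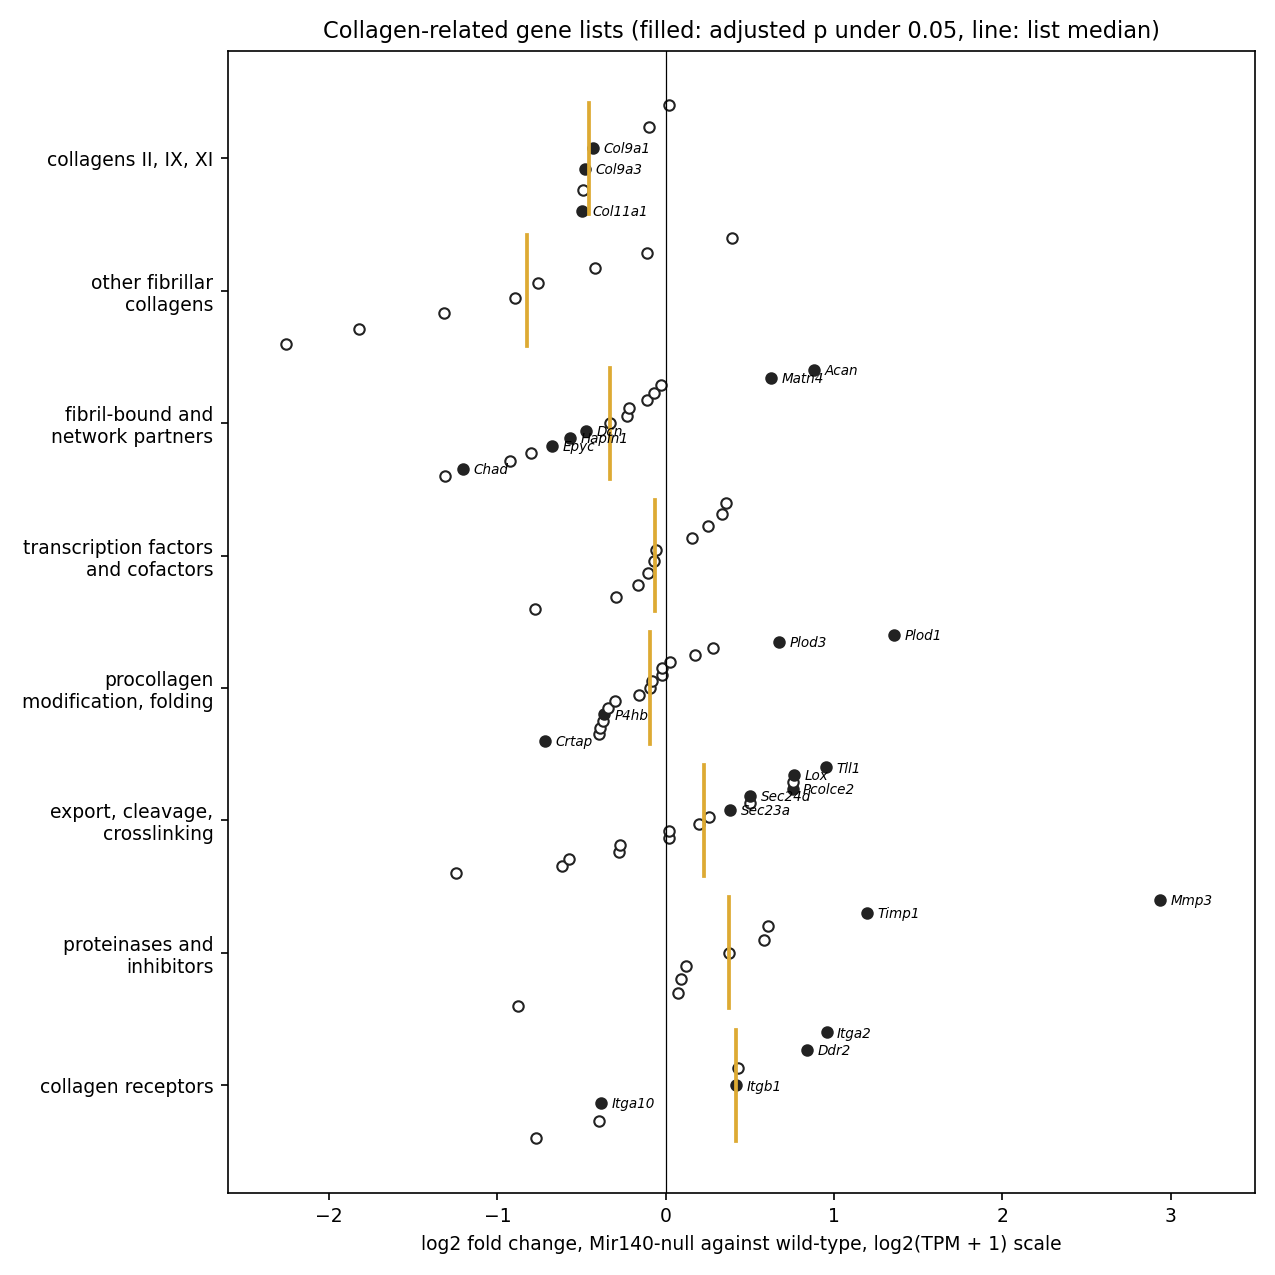
Log2 fold change (horizontal axis) of each tested gene of the fibril collagen set and 7 lists of collagen-related genes. Filled points had a limma adjusted p under 0.05 and are named, and the vertical line is the median of the list, -0.46 for the fibril collagens and -0.83 for the other fibrillar collagens.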

How the data were processed

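The deposited values are TPM by Ensembl gene, which the authors obtained with Salmon from stranded, poly(A)-selected 75-base single-end reads against the mm10 transcriptome; FastQC 0.11.7 is named in the submitters' processing notes. TPM are relative: a change of 1 abundant gene shifts the rest, and no scaling between libraries was applied. Identifiers on several lines held equal values and were counted once. The count model of the study could not be fitted to these values.

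Genes that reached 0.5 TPM in 4 or more of the 8 libraries were fitted on log2(TPM + 1) with limma 3.58.1 in R 4.3.3 (genotype, mean-variance trend, two-sided) and adjusted by the Benjamini-Hochberg method over all 17177. The fit was tested on simulated data. Ratios were compared by exact permutation over 70 assignments, two-sided, in Python 3.11.15 (NumPy 2.4.6, SciPy 1.17.1, pandas 2.3.3, matplotlib 3.10.9). Gene models were those of GENCODE M21, where 99.8% of the identifiers were found. Alternatives were another pseudocount, filter, scaling or model, the replicate block, and leaving out libraries.

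Members, lists and tests were chosen with earlier results of these data known. Named were the members, the largest called change in each direction of each list at a mean of 5 TPM or more, *Plod1*, *P4ha1*, *Sox9*, *Sox5*, *Sox6*, *Wwp2*, *Serpinh1*, and the 10 genes most like the members' mean. Genes named to spell out a count, and *Timp1*, *Col1a1*, *Col27a1* and cell type markers, were chosen after their values were seen.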

Additional observations from a re-analysis of the deposited data

Results flagged for a closer look

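In 8 of 72 groups of 4 values, the highest or lowest library stood apart from the nearest other by a larger share of the group's range than Dixon's 95% critical value for 4 samples. Chance flags about 1 in 20 groups, and the values are not independent, since they share libraries and genes. In 4 of them wild-type replicate 3 was the low library: the gap took 0.894 of the wild-type range for *Col2a1* TPM, 0.851 for *Col9a2* TPM, 0.926 for *Col11a2* TPM and 0.898 for the share of TPM in the 6 genes. In wild-type replicate 3 the ratio of *Col9a2* to *Col11a2* was the high value, with a gap of 0.85 of the range. The ratio of *Col9a1* to *Col11a1* stood high in *Mir140*-null replicate 1 (0.857), and that of *Col9a1* to *Col11a2* stood low in *Mir140*-null replicate 2 (0.882). *Sox6* TPM was low in wild-type replicate 1 (0.908).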

How the results depend on the processing

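No interval from counting error could be given, since TPM carry no depth. Log2 fold changes (*Mir140*-null against wild-type) of the 3 called members kept their direction under every alternative tried, but not their calls. Without a filter on low values, *Col9a1*, *Col9a3* and *Col11a1* stayed at -0.43, -0.48 and -0.50 and lost the threshold over the larger number of genes tested (limma adjusted p = 0.121, 0.0764 and 0.116), with 977 higher and 539 lower calls over all genes. At a mean of 5 TPM or more *Col2a1*, at -0.49, was called, with 605 lower calls over all genes. Median-ratio scaling gave -0.45 for *Col9a1* (no call) and -0.00082 for *Col9a2*. Quantile normalization gave 0 for *Col2a1* by construction, -0.37 for *Col9a1* and -0.41 for *Col11a1*, both without a call, and -0.0055 for *Sox5*. Sample quality weights gave -0.38 for *Col9a1* without a call, and 1 RUVr factor gave 2460 higher and 2016 lower calls. That factor, estimated from the residuals of the same fit, left the log2 fold changes unchanged and altered only the estimated spread. Causes of the shifts under other scalings and weights were not tested.

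Replicate numbers showed no pairing of the libraries: deviations of same-numbered libraries correlated at -0.0091 to 0.069, and not every library correlated best with its own number. A pairing is not excluded, since other differences between libraries of a genotype enter these deviations. With the replicate block the values were -0.43, -0.48 and -0.50 for *Col9a1*, *Col9a3* and *Col11a1* with no call (limma adjusted p = 0.0922, 0.0842 and 0.0812), and 671 genes were higher and 454 lower.

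Leaving out each library gave -0.50 to -0.37 for *Col9a1*, -0.54 to -0.41 for *Col9a3*, -0.58 to -0.39 for *Col11a1*, -0.087 to 0.12 for *Col9a2* (negative without wild-type replicate 3 or *Mir140*-null replicate 2) and -0.28 to 0.049 for *Sox6* (positive without wild-type replicate 2 or 4 or *Mir140*-null replicate 1), with 779 to 1553 higher and 419 to 1214 lower calls over all genes. The call of *Col9a1* and that of *Col11a1* remained only without *Mir140*-null replicate 4, and that of *Col9a3* only without wild-type replicate 2 or *Mir140*-null replicate 2 or 4. With 3 against 4 libraries the smallest p of a ratio is 0.0571.

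Exclusions of 2 libraries were chosen after seeing the data. Without *Mir140*-null replicates 1 and 2, *Col9a1*, *Col9a3* and *Col11a1* were at -0.41, -0.47 and -0.44 with no call, *Col9a2* at -0.12, *Sox9* at -0.032 and *Sox6* at 0.099, with 357 higher and 210 lower calls over all genes. Without *Mir140*-null replicates 3 and 4 the same 3 were at -0.45, -0.49 and -0.56 with no call, with 1889 higher and 2212 lower calls over all genes. Of nuclear protein-coding TPM the 6 genes took 12.1% in wild-type and 9.13% in *Mir140*-null libraries on average.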
